A study of Mus musculus with 21 samples.

Results

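Asns, Aldh18a1, Pycr1, Oat, Prodh, Ass1, Asl and Pck2 are 8 mouse genes that encode enzymes of asparagine, proline and arginine metabolism and the mitochondrial phosphoenolpyruvate carboxykinase (PEPCK). They were picked by gene symbol among the 40838 genes of each of 2 tables of raw RNA-seq counts, every one was found in both tables, and all 8 passed the filter on low counts in both. The cells were mouse embryonic stem cells (ESCs), pluripotent cells grown in culture, and each of the 21 libraries was made after 48 h in medium with 10% dialyzed serum and 0.2 mM pyruvate. The first table held the SLC16A1 clone 1, the SLC16A1 clone 2 and the line named chr8A, with 2 libraries each in SL2i medium and 3 libraries each in SL medium. SL was taken to mean serum plus leukemia inhibitory factor, SL2i to add inhibitors of GSK3B and MEK, and chr8A to be the control line, because the labels give only these names. SLC16A1 encodes the pyruvate and lactate carrier MCT1, each clone is 1 clonal line, and the labels do not say how the gene differs in them. The second table held 3 libraries of LbNOX cells, named for a water-forming NADH oxidase of bacterial origin that regenerates NAD+, and 3 libraries of cells with an empty vector, all in SL.

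Non-essential amino acids are made from a few central intermediates. Asparagine synthetase (Asns) moves an amide group from glutamine onto aspartate. Proline is made from glutamate by way of pyrroline-5-carboxylate (P5C): Aldh18a1 encodes P5C synthase, Pycr1 encodes the mitochondrial reductase that turns P5C into proline, Oat encodes ornithine aminotransferase, which links ornithine to P5C, and Prodh encodes proline dehydrogenase, which starts the breakdown of proline. Argininosuccinate synthase (Ass1) joins citrulline to aspartate, and argininosuccinate lyase (Asl) splits the product into arginine and fumarate. Pck2 encodes mitochondrial PEPCK, which turns oxaloacetate into phosphoenolpyruvate. Asns, Pycr1, Aldh18a1 and Pck2 are known targets of ATF4, a transcription factor that is made when amino acids are short or the integrated stress response is active.

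RefSeq promoter sequences of build GRCm38.p6, an older build than the GRCm39 used by the authors, were matched for 7 of the 8 genes. Each is the gene's sense-strand sequence from 250 bases before to 50 bases after the annotated start. The windows were searched on both strands for TGATGNAA, the core of the CARE element that ATF4 binds together with C/EBP proteins, and for CACGTG, an E-box, and the pair do not overlap in any of the windows printed. TGATGNAA was found in Asns, Pycr1 and Pck2, and it occurred in 3.969% of all 32851 promoter windows of the same length. CACGTG was found in Aldh18a1 and Ass1, and it occurred in 7.15% of all windows. The promoters of the 3 genes with TGATGNAA are shown because their levels diverge below. That of Ass1 is shown because the reads assigned to it alone rose most in SL2i. This rank is uncertain, because its reads were split with a processed copy described below. These promoters are printed with the matched letters in capitals. They lie at chr6:7693160-7693459 on the minus strand (Asns), chr11:120643699-120643998 on the minus strand (Pycr1), chr14:55540016-55540315 on the plus strand (Pck2, match on the opposite strand) and chr2:31470020-31470319 on the plus strand (Ass1).
Asns: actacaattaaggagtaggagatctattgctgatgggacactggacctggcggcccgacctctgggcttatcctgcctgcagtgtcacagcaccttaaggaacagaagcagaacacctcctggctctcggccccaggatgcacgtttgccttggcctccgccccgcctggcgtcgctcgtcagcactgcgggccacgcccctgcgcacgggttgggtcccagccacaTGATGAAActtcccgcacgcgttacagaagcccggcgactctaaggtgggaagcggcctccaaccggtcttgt
Pycr1: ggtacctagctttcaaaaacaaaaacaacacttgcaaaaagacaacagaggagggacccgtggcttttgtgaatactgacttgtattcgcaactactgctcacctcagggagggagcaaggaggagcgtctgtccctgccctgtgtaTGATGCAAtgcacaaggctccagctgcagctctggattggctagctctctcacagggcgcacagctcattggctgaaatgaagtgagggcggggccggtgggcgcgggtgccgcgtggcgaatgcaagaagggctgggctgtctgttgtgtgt
Pck2: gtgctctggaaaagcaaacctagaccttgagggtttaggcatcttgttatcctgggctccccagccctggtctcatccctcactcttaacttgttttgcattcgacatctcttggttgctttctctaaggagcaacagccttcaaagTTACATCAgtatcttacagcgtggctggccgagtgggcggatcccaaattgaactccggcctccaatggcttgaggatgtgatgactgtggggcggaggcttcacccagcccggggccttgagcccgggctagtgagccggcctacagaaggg
Ass1: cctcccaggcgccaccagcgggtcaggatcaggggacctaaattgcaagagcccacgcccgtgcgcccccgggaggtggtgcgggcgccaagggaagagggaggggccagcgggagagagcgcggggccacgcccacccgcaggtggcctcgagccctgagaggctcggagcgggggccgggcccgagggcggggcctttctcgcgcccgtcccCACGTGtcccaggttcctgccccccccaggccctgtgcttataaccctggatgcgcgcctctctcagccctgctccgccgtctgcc
Counted from the annotated start, the match begins at position -23 in Asns and at position -103 in both Pycr1 and Pck2. The E-box begins at position -36 in Ass1 and at position -59 in Aldh18a1. A match describes the letters in the window and was not tested for binding.

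Library totals were 9784408 to 10908368 counts in SL2i and 15802072 to 30145771 counts in SL for the clones and chr8A, and 16521594 to 30008895 counts in the LbNOX and vector libraries. Medium, depth and anything else that set the SL2i libraries apart from the SL libraries cannot be told apart. In the second table LbNOX replicate 3 and vector replicate 2 stood apart from the other 4 libraries on the first principal component, at 12.6 and 14.4 against -10.2 to -5.24. The 8 ESC markers examined were all read in every group, with a summed level of 6664 to 7112 reads per 1e+06 counted reads, or CPM, in SL2i and 3597 to 3935 CPM in SL. Such a sum can hide single markers that moved the other way. The lowest mean of an ESC marker was 85.6 CPM in SL2i against 176 CPM in SL in chr8A. It was 157 against 153 CPM in clone 1 and 147 against 166 CPM in clone 2. The 6 fibroblast markers summed to 4.22 to 5.89 CPM in SL2i, with no read of Col3a1 or Postn, and to 35.0 to 46.6 CPM in SL. The 4 neural markers summed to 56.2 to 66.0 CPM in SL2i and to 325 to 395 CPM in SL, and the 5 trophoblast markers to 46.8 to 49.1 CPM in SL2i and to 91.1 to 123 CPM in SL. The 6 primitive endoderm markers summed to 3.06 to 4.74 CPM in SL2i and to 5.68 to 8.46 CPM in SL. The 3 muscle and heart markers went the other way, with 3.96 to 8.13 CPM in SL2i and 2.09 to 3.47 CPM in SL. The part of such cells in the results below was not tested, and in bulk RNA fewer cells of a type and less RNA per cell cannot be told apart. Slc16a1 itself was read in every group: it averaged 123 ± 0.732 CPM in clone 1 and 78.6 ± 0.122 CPM in clone 2 against 162 ± 6.96 CPM in chr8A in SL2i, and 171 ± 10.4 CPM in clone 1 and 93.5 ± 2.65 CPM in clone 2 against 198 ± 2.99 CPM in chr8A in SL (SD, n = 2 each in SL2i and 3 each in SL). Its level checks the labels only in part, since an altered gene can still be transcribed.

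Levels below are CPM after TMM normalization, which scales each library to a common composition. Per kilobase of gene length, Asns was the highest of the 8 genes in every group. It reached 498 ± 20.3, 534 ± 2.91 and 497 ± 15.9 CPM per kb in clone 1, clone 2 and chr8A in SL2i, and 205 ± 3.60, 191 ± 5.58 and 201 ± 6.65 CPM per kb in the same lines in SL (SD, n = 2 each in SL2i and 3 each in SL). That placed Asns between the 98.5th and the 99.6th percentile of the 17178 genes tested in that table. In SL chr8A the other genes followed per kilobase as Aldh18a1 at 36.3 ± 0.687, Oat at 23.3 ± 1.11, Pck2 at 21.3 ± 0.923, Asl at 18.4 ± 0.220, Pycr1 at 15.1 ± 1.06, Ass1 at 11.7 ± 0.492 and Prodh at 8.57 ± 0.571 CPM per kb (SD, n = 3). The neighbours Oat and Pck2 differed by less than the sum of their SDs there, while every other pair of neighbours in this order was farther apart than the sum of theirs. In SL2i chr8A the order was Asns at 497 ± 15.9, Ass1 at 155 ± 0.115, Oat at 63.8 ± 3.55, Pck2 at 30.3 ± 2.75, Aldh18a1 at 28.9 ± 1.30, Pycr1 at 23.2 ± 1.33, Asl at 15.3 ± 2.10 and Prodh at 6.25 ± 0.0118 CPM per kb (SD, n = 2). Here Pck2 and Aldh18a1 were closer than the sum of their SDs. The place of Ass1 in both orders is uncertain, because its reads were split with a processed copy, Gm5424, described below. In chr8A, Ass1 held 16.5% of the reads assigned to either gene in SL and 78.4% in SL2i. In the SL libraries with LbNOX or vector, which were normalized separately, Asns was again highest with 118 ± 25.2 CPM per kb in LbNOX and 121 ± 22.7 CPM per kb in vector cells, and Pycr1 was lowest with 6.40 ± 1.30 CPM per kb in LbNOX and 6.90 ± 1.67 CPM per kb in vector cells (SD, n = 3 each).

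**Figure D1:**
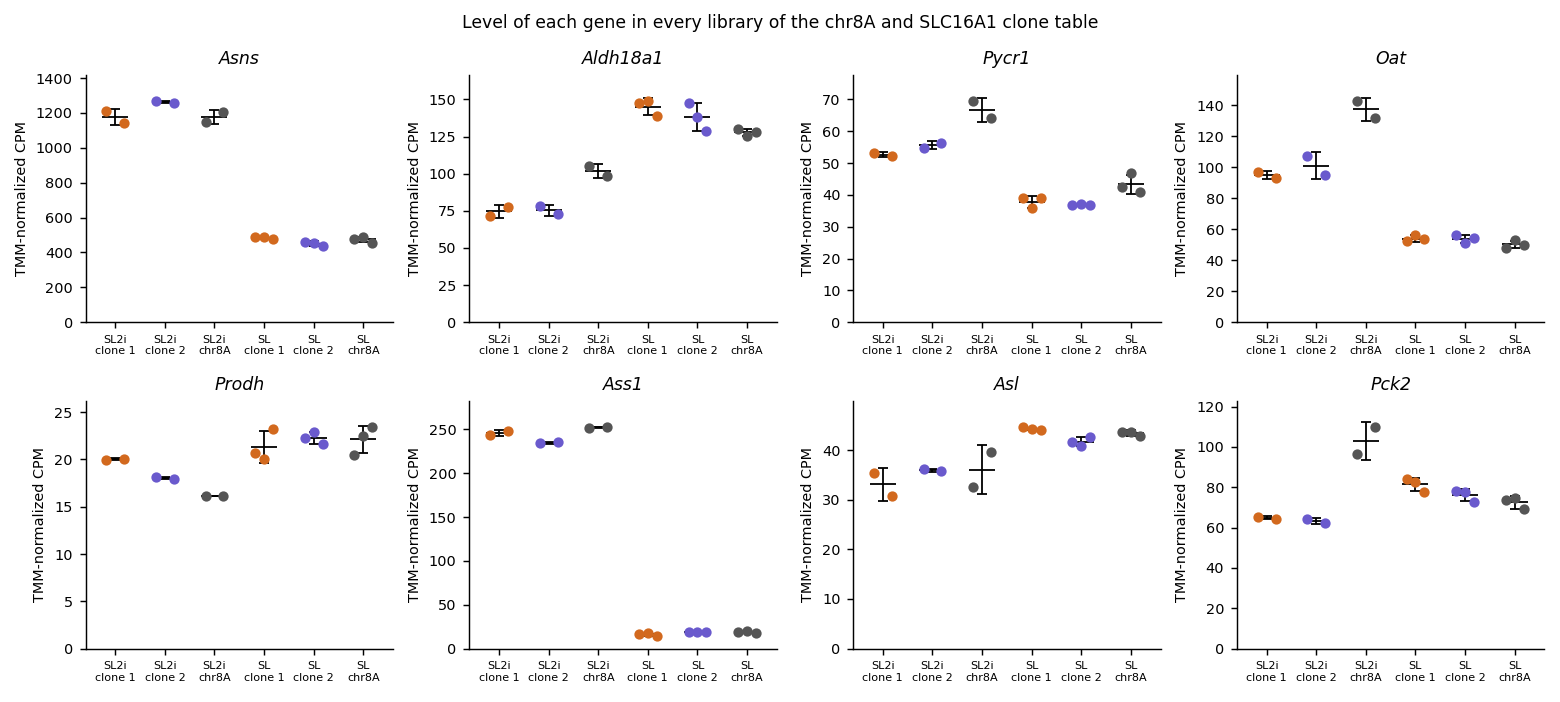
TMM-normalized CPM (vertical axis, from 0) of the 8 genes in every library of the SLC16A1 clones and chr8A, with SL2i groups on the left and SL groups on the right. Points are libraries, and bars give the mean ± SD of 2 libraries in SL2i and 3 in SL. Asns and Oat were higher in SL2i in every line, and Pck2 in chr8A alone stood above its SL libraries.

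The medium was compared within each line, SL2i against SL. All differences were tested with edgeR's quasi-likelihood test and p-values adjusted by the Benjamini-Hochberg method over all 17178 genes, and a gene was called at an adjusted p under 0.05. Nothing in the labels says that the libraries of a group are separate cultures, so each p-value sets a difference against a spread between libraries that could be technical. The test called 7 of the 8 genes in clone 1, 8 in clone 2 and 8 in chr8A, where it called 73%, 73.1% and 72.8% of all genes tested. Libraries of the media did not overlap for 7, 8 and 8 of the 8 genes, beside 81.3%, 81.5% and 80.8% of all genes tested. Most genes therefore differed between the media, and the count for these 8 is near the background, so the sizes and directions carry the description. The median log2 fold change of the 8 genes was 0.19 in clone 1, 0.19 in clone 2 and 0.56 in chr8A, beside -0.0025, -0.0072 and 0.00088 over all genes tested.

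Asns was higher in SL2i in all 3 lines. It had 1211 and 1143 CPM in SL2i clone 1 and 491, 489 and 475 CPM in SL clone 1. It had 1268 and 1258 CPM in SL2i clone 2 and 461, 457 and 436 CPM in SL clone 2. It had 1149.8 and 1203 CPM in SL2i chr8A and 479, 487 and 457 CPM in SL chr8A. Every SL2i library was above every SL library, and the 3 lines lay close together within each medium. The log2 fold change was 1.28 ± 0.0317 in clone 1, 1.49 ± 0.0315 in clone 2 and 1.31 ± 0.0315 in chr8A (standard error), or 2.43, 2.80 and 2.48-fold, with edgeR adjusted p-values of 2.91e-61, 1.79e-67 and 1.55e-62. In chr8A, 29.0% of all genes tested had a larger absolute change. Nars, which encodes the cytosolic enzyme that charges tRNA with asparagine, moved the other way, with a log2 fold change of -0.45 ± 0.0327, -0.40 ± 0.0323 and -0.17 ± 0.0321 in clone 1, clone 2 and chr8A. Per length, the ratio of Asns to Nars was 2.77 ± 0.136, 2.84 ± 0.0768 and 2.46 ± 0.0255 in SL2i clone 1, clone 2 and chr8A, and 0.836 ± 0.00597, 0.771 ± 0.00654 and 0.880 ± 0.0107 in the same lines in SL (SD, not tested).

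Reads assigned to Ass1 showed the largest difference of the 8 genes between the media. Ass1 had 244 and 248 CPM in SL2i clone 1 and 17.0, 17.9 and 14.6 CPM in SL clone 1. It had 234 and 235 CPM in SL2i clone 2 and 19.2, 18.8 and 18.8 CPM in SL clone 2. It had 252 and 252 CPM in SL2i chr8A and 19.4, 19.8 and 18.2 CPM in SL chr8A. The media did not overlap, and the log2 fold change was 3.90 ± 0.0528 in clone 1, 3.64 ± 0.0489 in clone 2 and 3.72 ± 0.0483 in chr8A (edgeR adjusted p = 3.42e-85, 1.75e-85 and 5.08e-87). These values are uncertain, because Ass1 shares sequence with Gm5424, a processed copy of it: 43.3% of the 30-base words of Ass1 also occur in Gm5424. Of the reads assigned to either gene, Ass1 held 79.4%, 78.8% and 78.4% in SL2i clone 1, clone 2 and chr8A, but 15.2%, 17.0% and 16.5% in the same lines in SL. Gm5424 itself averaged 63.7 ± 1.70, 63.1 ± 3.78 and 69.3 ± 2.09 CPM in SL2i clone 1, clone 2 and chr8A and 91.9 ± 2.85, 92.2 ± 1.93 and 97.2 ± 7.67 CPM in the same lines in SL (SD, n = 2 each in SL2i and 3 each in SL).

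With the reads of both genes summed, the media still did not overlap: the sums averaged 309.6, 298 and 322 CPM in SL2i clone 1, clone 2 and chr8A and 108, 111 and 116 CPM in the same lines in SL. The log2 fold change of the sum was 1.51 ± 0.0389 in clone 1, 1.42 ± 0.0379 in clone 2 and 1.47 ± 0.0374 in chr8A, with edgeR adjusted p-values of 9.79e-59, 2.58e-57 and 4.35e-59. The sum was chosen after seeing the data. Among genes with a mean log2 CPM of at least 3, those that share part of their sequence ran higher in SL2i: the median log2 fold change in chr8A was -0.016 over 8236 genes that share under 5% of their words, 0.39 over 384 genes that share 20 to 40%, 0.67 over 71 genes that share 40 to 50% and 0.10 over 252 genes that share 50% or more. The part of read assignment in the difference of Ass1 was not tested further, and the other 7 genes share between 0 and 3.84% of their words.

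**Figure D2:**
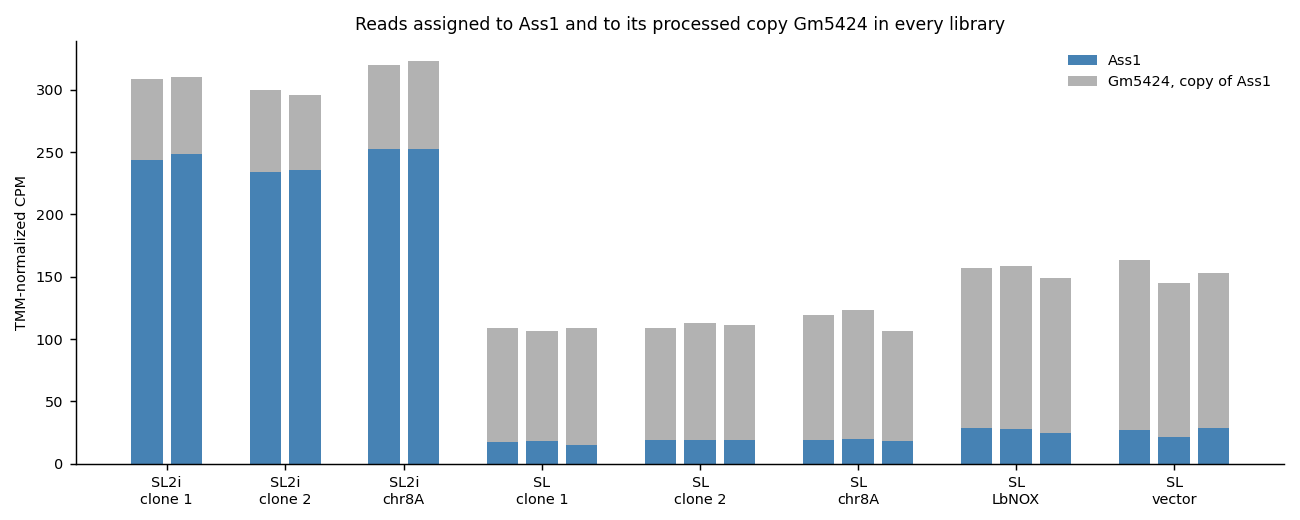
Stacked bars give the TMM-normalized CPM assigned to Ass1 (blue) and to its processed copy Gm5424 (grey) in each library, grouped by medium and line, with LbNOX left of vector. Ass1 held 78.4 to 79.4% of the sum on average in the SL2i groups and 15.2 to 17.3% in the SL groups, and the sum itself was higher in SL2i.

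Asl, the next enzyme of the arginine pathway, went the opposite way by a small amount. It ranged from 30.8 to 39.6 CPM over the 6 SL2i libraries and from 41.0 to 44.6 CPM over the 9 SL libraries, with no overlap. Its log2 fold change was -0.42 ± 0.0743 in clone 1, -0.21 ± 0.0708 in clone 2 and -0.27 ± 0.0705 in chr8A (edgeR adjusted p = 3.22e-07, 0.00510 and 0.000392), and the call in chr8A was lost without SL2i chr8A replicate 1 (-0.15 ± 0.0892, adjusted p = 0.125). The fibroblast, neural, trophoblast and primitive endoderm marker sums were also lower in SL2i, and the muscle and heart sum was higher, as given above. The part of these markers in the Asl difference was not tested.

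The proline genes moved in different directions in SL2i. Aldh18a1 had 71.6 and 77.6 CPM in SL2i clone 1 and 148, 149 and 139 CPM in SL clone 1. It had 78.0 and 72.8 CPM in SL2i clone 2 and 147, 138 and 129 CPM in SL clone 2. It had 105 and 98.7 CPM in SL2i chr8A and 130.4, 126 and 128 CPM in SL chr8A. Aldh18a1 was lower in SL2i in every line, with a larger gap in both clones than in chr8A: the log2 fold change was -0.96 ± 0.0512 in clone 1, -0.87 ± 0.0502 in clone 2 and -0.33 ± 0.0475 in chr8A (edgeR adjusted p = 6.17e-31, 1.14e-28 and 2.55e-09).

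Oat, by contrast, was higher in SL2i. It had 96.8 and 93.2 CPM in SL2i clone 1 and 52.3, 56.3 and 53.6 CPM in SL clone 1. It had 107 and 95.1 CPM in SL2i clone 2 and 56.3, 51.4 and 54.2 CPM in SL clone 2. It had 143 and 132 CPM in SL2i chr8A and 48.1, 52.8 and 49.8 CPM in SL chr8A. The media did not overlap in any line, and the chr8A libraries in SL2i were above both clones. The log2 fold change was 0.81 ± 0.0558 in clone 1, 0.91 ± 0.0530 in clone 2 and 1.45 ± 0.0504 in chr8A (edgeR adjusted p = 3.87e-25, 5.17e-30 and 2.11e-47). Aldh18a1 and Oat both feed P5C, and the ratio of Aldh18a1 to Oat per length was 0.480 ± 0.0403, 0.456 ± 0.0164 and 0.454 ± 0.00481 in SL2i clone 1, clone 2 and chr8A, and 1.64 ± 0.0755, 1.56 ± 0.0973 and 1.56 ± 0.103 in the same lines in SL (SD, not tested). Aldh18a1 was thus the higher of the pair in SL and Oat the higher in SL2i, in all 3 lines.

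Pycr1 was also higher in SL2i, with 52.2 to 69.5 CPM over the 6 SL2i libraries and 35.7 to 46.8 CPM over the 9 SL libraries. Its log2 fold change was 0.47 ± 0.0679 in clone 1, 0.59 ± 0.0647 in clone 2 and 0.62 ± 0.0611 in chr8A (edgeR adjusted p = 1.10e-09, 3.28e-14 and 1.86e-16). Pycr3, the cytosolic reductase, was called lower in chr8A alone (-0.21 ± 0.0783), with -0.10 ± 0.0818 in clone 1 and -0.16 ± 0.0778 in clone 2, and whether the lines differed was not called (interaction adjusted p = 0.556 and 0.821). On the breakdown side, Prodh ranged from 16.1 to 20.1 CPM in SL2i and from 20.1 to 23.4 CPM in SL, with an overlap in clone 1. Its log2 fold change of -0.30 ± 0.0955 in clone 2 and -0.46 ± 0.0982 in chr8A was called, and that of -0.093 ± 0.0975 in clone 1 was not (edgeR adjusted p = 0.00326, 2.05e-05 and 0.392). Aldh4a1, the dehydrogenase that turns P5C into glutamate, was higher in SL2i by 0.67 ± 0.0556, 0.52 ± 0.0536 and 0.17 ± 0.0558 in clone 1, clone 2 and chr8A, though 31.1% of its words also occur in another gene. Prodh2 stayed at or under 0.21 CPM on average in every group.

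Pck2 was the gene whose medium difference turned with the line. It had 65.3 and 64.4 CPM in SL2i clone 1 and 83.9, 82.5 and 77.8 CPM in SL clone 1. It had 64.4 and 62.2 CPM in SL2i clone 2 and 78.2, 77.7 and 72.6 CPM in SL clone 2. It had 96.4 and 109.7 CPM in SL2i chr8A and 73.8, 74.9 and 69.0 CPM in SL chr8A. In the clones both SL2i libraries were below all 3 SL libraries, and in chr8A both were above. The log2 fold change was -0.33 ± 0.0566 in clone 1, -0.26 ± 0.0555 in clone 2 and 0.51 ± 0.0505 in chr8A (edgeR adjusted p = 2.13e-07, 1.46e-05 and 4.80e-16). Pck1, the cytosolic PEPCK of liver and kidney, had 0 to 2 reads per group, so nearly all PEPCK reads in these cells came from Pck2.

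**Figure D3:**
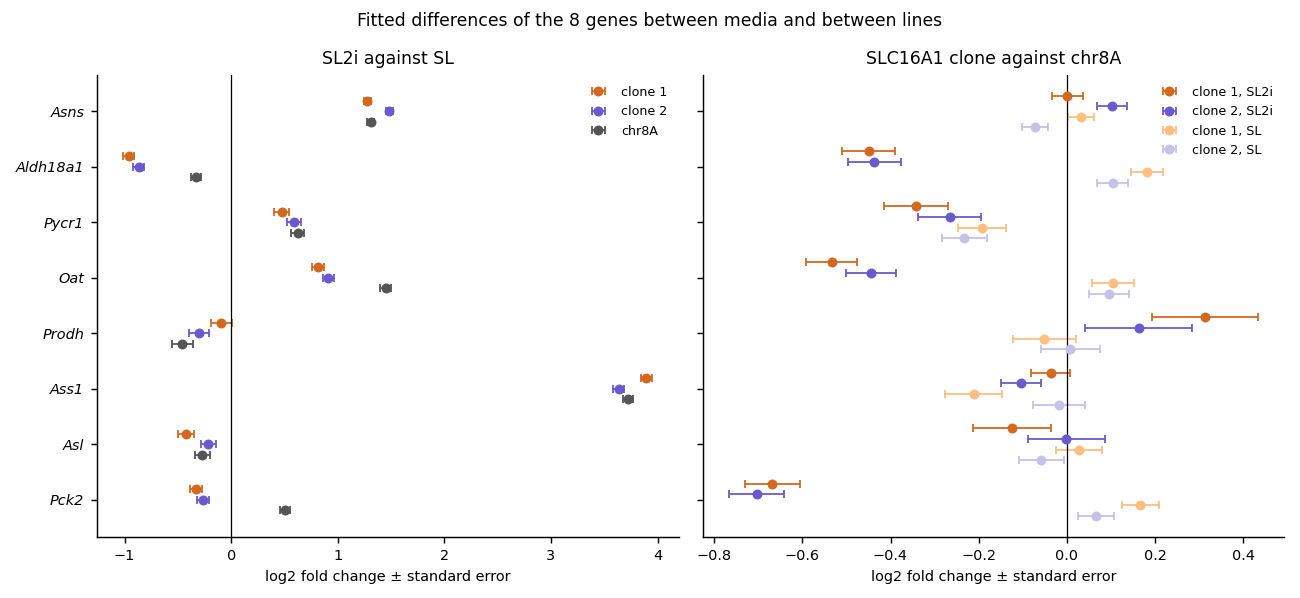
Points give the fitted log2 fold change of each gene and bars its standard error (edgeR), for SL2i against SL in each line (left) and for each SLC16A1 clone against chr8A in SL2i and in SL (right). Aldh18a1, Oat and Pck2 lie well below 0 for the clones in SL2i and at or above 0 for them in SL, and the Ass1 values on the left use reads assigned to Ass1 alone.

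The clones were next compared with chr8A in SL2i, where the neural markers summed to 66.0 CPM in both libraries of clone 1 and 61.8 to 62.2 CPM in clone 2 against 56.2 to 60.3 CPM in chr8A, and their part in the differences was not tested. Of the 8 genes, 5 were called in clone 1 and 5 in clone 2, where 22.4% and 20.6% of all genes tested were called. Aldh18a1, Pycr1, Oat and Pck2 were lower in both clones. Pck2 averaged 64.9 ± 0.689 CPM in clone 1 and 63.3 ± 1.51 CPM in clone 2 against 103 ± 9.38 CPM in chr8A (SD, n = 2 each), a log2 fold change of -0.67 ± 0.0628 in clone 1 and -0.70 ± 0.0626 in clone 2 (edgeR adjusted p = 8.11e-16 and 5.53e-17). It was the largest difference of the 8 genes in this contrast, and 17.3% and 16.1% of all genes tested had a larger one. Oat averaged 95.0 ± 2.52 CPM in clone 1 and 101 ± 8.61 CPM in clone 2 against 137 ± 7.64 CPM in chr8A (SD, n = 2 each), with -0.53 ± 0.0576 and -0.44 ± 0.0567 on the log2 scale (adjusted p = 5.11e-13 and 4.13e-10, edgeR). Aldh18a1 averaged 74.6 ± 4.29 CPM in clone 1 and 75.4 ± 3.71 CPM in clone 2 against 102 ± 4.59 CPM in chr8A (SD, n = 2 each), with -0.45 ± 0.0603 and -0.44 ± 0.0598 (adjusted p = 2.93e-09 and 6.49e-09, edgeR). For each of these 3 genes all libraries of a clone were below those of chr8A, and such libraries did not overlap for 56.7% and 55.2% of all genes tested.

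Pycr1 had 53.2 and 52.2 CPM in clone 1 and 54.7 and 56.5 CPM in clone 2 against 69.5 and 64.1 CPM in chr8A in SL2i, with no overlap and log2 fold changes of -0.34 ± 0.0729 and -0.27 ± 0.0718 (adjusted p = 0.000114 and 0.00319, edgeR). The clone 2 call was lost without SL2i chr8A replicate 1 (-0.20 ± 0.0881, adjusted p = 0.120). Prodh, which removes proline, went the other way, with 0.31 ± 0.120 in clone 1 and 0.16 ± 0.122 in clone 2. The clone 1 value was just called (adjusted p = 0.0482, edgeR) and was lost under 7 alternatives, and the clone 2 value was not called (adjusted p = 0.394). Asns differed by 0.00046 ± 0.0350 in clone 1 and 0.10 ± 0.0349 in clone 2, and the clone 2 value was called (adjusted p = 0.0245, edgeR) but lost under 5 alternatives, among them leaving out either SL2i clone 2 library. Reads of Ass1 differed by -0.037 ± 0.0443 in clone 1 and -0.10 ± 0.0443 in clone 2, neither called (adjusted p = 0.624 and 0.0858), and the sum with Gm5424 by -0.055 ± 0.0411 and -0.11 ± 0.0411 (adjusted p = 0.386 and 0.0421, so that the sum was called in clone 2). Asl differed by -0.12 ± 0.0889 and -0.0010 ± 0.0868, neither called. Without SL2i chr8A replicate 1, 3 of the 8 genes were called in clone 2.

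In SL the differences between the clones and chr8A were small, and the neural and trophoblast markers, given with the ATF4 list, also differed there. Of the 8 genes, 4 were called in clone 1 and 3 in clone 2, where 16.6% and 26.9% of all genes tested were called. Libraries did not overlap for 5 of the 8 genes in clone 1 and 2 in clone 2, beside 31.7% and 38.7% of all genes tested. Pycr1 was the gene that was lower in both clones in SL as well: it had 38.9, 35.7 and 39.1 CPM in clone 1 and 36.9, 37.1 and 36.7 CPM in clone 2 against 42.3, 46.8 and 40.9 CPM in chr8A, with no overlap. Its log2 fold change was -0.19 ± 0.0535 in clone 1 and -0.23 ± 0.0510 in clone 2 (edgeR adjusted p = 0.00584 and 0.000173), and the clone 1 call was lost without SL chr8A replicate 2 (adjusted p = 0.124) and without SL clone 1 replicate 2 (adjusted p = 0.0805). Aldh18a1 was higher in both clones, by 0.18 ± 0.0367 in clone 1 and 0.10 ± 0.0359 in clone 2 (edgeR adjusted p = 9.87e-05 and 0.0225). The clone 2 libraries, with 147, 138 and 129 CPM, overlapped those of chr8A, with 130.4, 126 and 128 CPM, and that call was lost under 6 alternatives, DESeq2 among them. Pck2 was higher in clone 1 by 0.17 ± 0.0422 (adjusted p = 0.00224), a call lost without SL chr8A replicate 3 (adjusted p = 0.0542) and at equal depth, and by 0.067 ± 0.0409 in clone 2, not called (adjusted p = 0.235).

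Among the remaining genes in SL, Ass1 was lower in clone 1, with -0.21 ± 0.0650 (edgeR adjusted p = 0.0140) and with -0.10 ± 0.0355 for the sum with Gm5424 (adjusted p = 0.0360). In clone 2 it differed by -0.018 ± 0.0585, not called. The clone 1 call of Ass1 was lost without SL chr8A replicate 2, without SL clone 1 replicate 3 and at equal depth. Asns was lower in clone 2, with -0.072 ± 0.0286 (adjusted p = 0.0487, edgeR), with libraries that overlapped those of chr8A and a call lost under 4 alternatives, and it differed by 0.032 ± 0.0288 in clone 1, not called. Oat, Prodh and Asl were not called in either clone. Their log2 fold changes lay between -0.051 (Prodh in clone 1) and 0.10 (Oat in clone 1). Without SL chr8A replicate 2, 2 genes were called in clone 1 and 1 in clone 2.

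Whether the clones' differences changed with the medium was tested as an interaction, the difference between clone and chr8A in SL2i minus that in SL. It was called for 3 of the 8 genes with clone 1 and 4 with clone 2, where 17% and 16.9% of all genes tested were called. The 3 genes called with both clones were Aldh18a1, Oat and Pck2. The interaction of Pck2 was -0.83 ± 0.0757 with clone 1 and -0.77 ± 0.0748 with clone 2 on the log2 scale (edgeR adjusted p = 2.56e-16 and 8.37e-15). That of Oat was -0.64 ± 0.0747 and -0.54 ± 0.0726, and that of Aldh18a1 was -0.63 ± 0.0706 and -0.54 ± 0.0698, all with adjusted p-values of 4.28e-09 or less (edgeR). In SL2i the difference of these 3 genes from chr8A was called negative in both clones. In SL their fitted values were positive but small. They were called there only for Aldh18a1 in both clones and for Pck2 in clone 1. Of those calls, that of Aldh18a1 in clone 2 and that of Pck2 were lost under alternatives given above. For Asns the interaction was -0.031 ± 0.0453 with clone 1, not called (adjusted p = 0.717), and 0.17 ± 0.0451 with clone 2 (adjusted p = 0.00249, edgeR). Pycr1, Prodh, Ass1 and Asl were not called with either clone, at -0.15 ± 0.0906, 0.36 ± 0.140, 0.17 ± 0.0787 and -0.15 ± 0.103 with clone 1, and the lower Pycr1 of the clones was therefore not shown to differ between the media.

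The clones also shared chr8A libraries as their control, so their like values are not independent of each other. Set against each other directly, clone 2 and clone 1 differed in SL for 1 of the 8 genes, where 4.4% of all genes tested were called, and in SL2i for 0 of 8 by edgeR, where 0.157% were called. The 1 gene was Asns, lower in clone 2, with -0.10 ± 0.0288 (edgeR adjusted p = 0.0175) and 461, 457 and 436 CPM in clone 2 against 491, 489 and 475 CPM in clone 1, and the call was lost without clone 1 replicate 1, without clone 1 replicate 2 or without clone 2 replicate 3. In SL2i 1 of the 8 genes, again Asns, had an unadjusted p under 0.05 (0.10 ± 0.0349, adjusted p = 0.319), and DESeq2 also called 0.

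LbNOX was compared with vector in the second table, and none of the 8 genes was called. The level of LbNOX and the oxidation of NADH in these cells were not examined here. By edgeR 0 of 8 passed, 0 had an unadjusted p under 0.05, and DESeq2 called 0, where edgeR called 0.0372% of the 16119 genes tested. Asns had 309.8, 316 and 209.7 CPM in LbNOX cells and 325, 226 and 310.2 CPM in vector cells. Pycr1 had 21.4, 19.6 and 14.2 CPM in LbNOX cells and 23.4, 14.4 and 21.8 CPM in vector cells. Pck2 had 85.0, 87.9 and 62.7 CPM in LbNOX cells and 92.1, 66.5 and 89.9 CPM in vector cells. For all 3 genes LbNOX replicate 3 and vector replicate 2 were the lowest libraries of their group by a wide gap, and the groups overlapped. Libraries of LbNOX and vector cells overlapped for all 8 genes, and did not for 9.64% of all genes tested. These are the libraries that stood apart on the first principal component. Trib3, a target of ATF4 and CHOP, showed it too, with 43.6, 47.4 and 30.9 CPM in LbNOX cells and 47.2, 36.5 and 47.9 CPM in vector cells.

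The log2 fold changes for LbNOX against vector were -0.046 ± 0.231 for Asns, -0.12 ± 0.210 for Pycr1 and -0.080 ± 0.180 for Pck2, and the standard errors of these 3 genes were the largest of the 8. Aldh18a1, Oat, Prodh, Ass1 and Asl lay between -0.087 (Prodh) and 0.055 (Ass1), with standard errors of 0.0572 to 0.0984. The edgeR adjusted p was 1.00 for each of the 8 genes, and the unadjusted p ran from 0.351 to 0.851. Aldh18a1 ranged from 130.5 to 146 CPM in LbNOX cells and from 124 to 148 CPM in vector cells. Prodh ranged from 27.1 to 32.9 CPM in LbNOX cells and from 28.6 to 35.1 CPM in vector cells. Oat ranged from 60.6 to 62.6 CPM in LbNOX cells and from 56.9 to 64.0 CPM in vector cells. For Aldh18a1, Prodh and Ass1 the lowest library of each group was again LbNOX replicate 3 or vector replicate 2, while Oat and Asl did not show this. Without the 2 libraries that stood apart, a choice made after seeing the data, the values were -0.025 ± 0.0372 for Asns, -0.15 ± 0.0869 for Pycr1 and -0.076 ± 0.0490 for Pck2, and again 0 of 8 were called while 49 genes of all were called. Oat was 0.093 ± 0.0562 without them, not called. The sum of Ass1 and Gm5424 averaged 155 CPM in LbNOX cells and 154 CPM in vector cells.

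**Figure D4:**
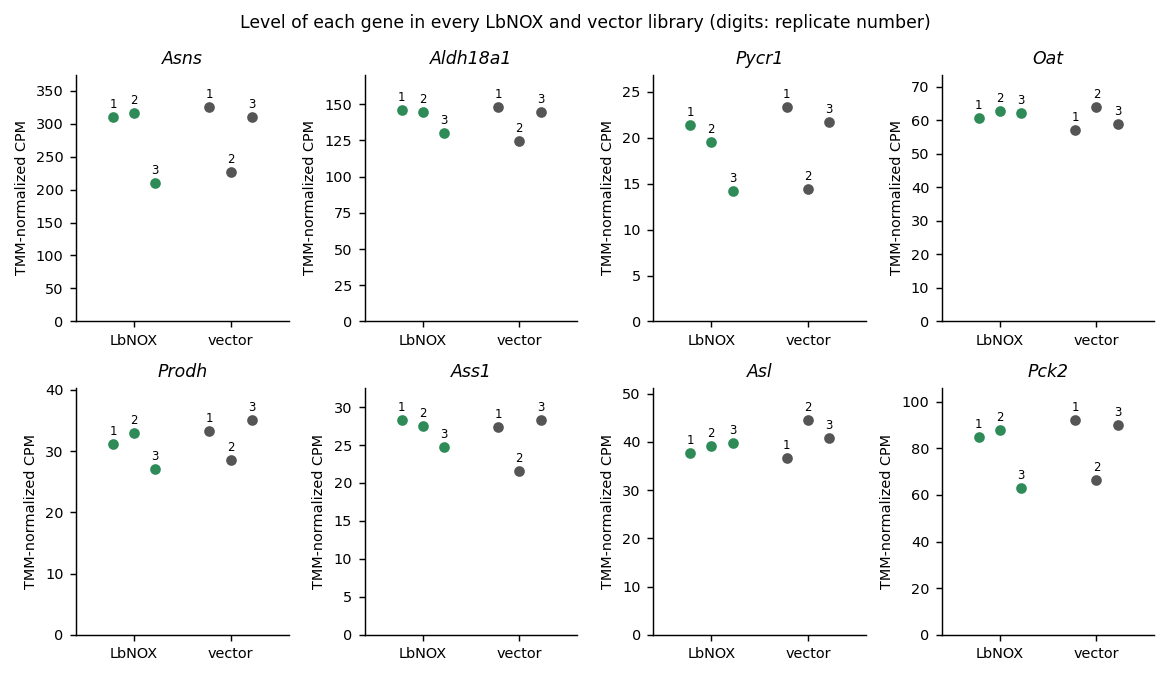
TMM-normalized CPM (vertical axis, from 0) of the 8 genes in each of the 3 LbNOX libraries (left, green) and 3 vector libraries (right, grey), with the replicate number above each point. In Asns, Pycr1 and Pck2, LbNOX replicate 3 and vector replicate 2 lie together below the other libraries, and the groups overlap in all 8 genes.

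Genes of the same pathways were set beside these. As background for their counts, 35.9% of all genes tested were called higher in SL2i than in SL and 37.1% lower in clone 1, 35.8% higher and 37.2% lower in clone 2, and 36.1% higher and 36.8% lower in chr8A. In the list of arginine, ornithine and polyamine genes other than Ass1 and Asl, 15 of 17 were tested, and in SL2i against SL 6 were called higher and 6 lower in clone 1, 6 and 5 in clone 2, and 7 and 5 in chr8A. Gatm, which makes the creatine precursor from arginine and glycine, was lowest of them at -3.91 ± 0.263 in chr8A, with 0.634 CPM in SL2i and 9.61 CPM in SL. Oaz1, an inhibitor of ornithine decarboxylase, was 1.65 ± 0.0690 (24.2% of its words shared), and the spermine synthase Sms was -1.10 ± 0.0662 (18.9% shared). Slc7a1, an importer of arginine and lysine, was 0.69 ± 0.0371, and Odc1, which turns ornithine into putrescine, was -0.31 ± 0.0316 (chr8A, 31.7% of its words shared). The urea cycle enzymes Otc, which makes citrulline, Arg1, which makes ornithine, and Cps1, which makes carbamoyl phosphate, and the mitochondrial arginase Arg2 were nearly unread: Otc and Arg1 averaged at most 0.14 CPM in any group, and Arg2 and Cps1 at most 1.17 CPM. Between the clones and chr8A in SL2i, 2 of the 15 were called higher and 2 lower in each clone (10.4% and 12.1% of all genes tested in clone 1, 9.74% and 10.8% in clone 2), with Sat1, which acetylates polyamines, at -0.52 ± 0.0727 in clone 1 and -0.51 ± 0.0721 in clone 2. In SL 5 were called higher and 0 lower in clone 1 (8.83% and 7.77% of all genes tested) and 6 higher and 1 lower in clone 2 (14.3% and 12.6%), and Slc7a1 was 0.27 ± 0.0321 and 0.23 ± 0.0314.

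Among the aspartate, asparagine and glutamine genes other than Asns, 12 were tested, and 5 were called higher and 7 lower in SL2i in each of clone 1, clone 2 and chr8A, with medians of -0.45, -0.39 and -0.33. The genes called higher in chr8A included Got1, the cytosolic transaminase that makes aspartate (0.45 ± 0.0356), its mitochondrial counterpart Got2 (0.35 ± 0.0384, 20.5% of its words shared), and the mitochondrial aspartate and glutamate carriers Slc25a12 (0.31 ± 0.0677) and Slc25a13 (0.78 ± 0.0398). Those called lower in chr8A included the glutamine synthetase Glul (-0.89 ± 0.0431, 20.1% shared), the aspartate and glutamate importer Slc1a3 (-2.83 ± 0.107) and the asparaginase Asrgl1 (-0.48 ± 0.0780). Against chr8A in SL2i, 3 of the 12 were called higher and 2 lower in clone 1 and 2 higher and 2 lower in clone 2, and in SL 4 higher and 2 lower in clone 1 and 4 higher and 3 lower in clone 2. Over all genes tested in SL2i, clone 1 had 10.4% higher and 12.1% lower and clone 2 had 9.74% higher and 10.8% lower. Over all genes tested in SL, clone 1 had 8.83% higher and 7.77% lower and clone 2 had 14.3% higher and 12.6% lower. Glul was higher in both clones, by 0.36 ± 0.0515 in clone 1 and 0.23 ± 0.0518 in clone 2 in SL2i and by 0.17 ± 0.0320 and 0.26 ± 0.0312 in SL. In the clones against chr8A, Got1 differed by -0.040 in clone 1 and -0.026 in clone 2 in SL2i, neither called, and by 0.023 and 0.11 in SL, the clone 2 value called.

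Around Pck2, 8 of 9 other genes of oxaloacetate and phosphoenolpyruvate metabolism were tested. Against SL, SL2i had 5 called higher and 2 lower in each line. Fbp2, a fructose bisphosphatase, was 3.84 ± 0.293, 4.39 ± 0.265 and 3.16 ± 0.323 in clone 1, clone 2 and chr8A, at 7.92, 10.5 and 3.95 CPM in SL2i and 0.545, 0.541 and 0.435 CPM in SL. The malate dehydrogenases, which make oxaloacetate, were also higher, Mdh1 at 0.49 ± 0.0372 and Mdh2 at 0.27 ± 0.0326 in chr8A. Suclg2, a subunit of the mitochondrial enzyme that makes GTP, which PEPCK uses, also differed between the lines: its log2 fold change in SL2i against SL was -1.07 ± 0.0629 in chr8A, -0.25 ± 0.0566 in clone 1 and -0.22 ± 0.0551 in clone 2, and in SL2i it was higher in the clones than in chr8A by 0.88 ± 0.0749 in clone 1 and 0.87 ± 0.0746 in clone 2 (edgeR adjusted p = 5.08e-18 and 7.76e-18). Its interaction was 0.82 ± 0.0863 with clone 1 and 0.86 ± 0.0852 with clone 2, of the opposite sign to that of Pck2. Its values are uncertain, since 20.9% of its words occur in other genes. Pyruvate carboxylase (Pcx), which makes oxaloacetate from pyruvate, was 0.45 ± 0.107 in clone 1, called, and 0.19 ± 0.110 in clone 2, not called, against chr8A in SL2i. Of the 8, 3 were called higher and 1 lower in clone 1 and 3 higher and 0 lower in clone 2 in SL2i, and in SL clone 1 had 0 called and clone 2 had 3 called higher. The shares of all genes called higher were 10.4% for clone 1 and 9.74% for clone 2 in SL2i and 8.83% for clone 1 and 14.3% for clone 2 in SL, and the shares called lower were 12.1%, 10.8%, 7.77% and 12.6% in the same order.

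Because Asns, Pycr1, Aldh18a1 and Pck2 are known ATF4 targets, 23 other genes of that response were followed. In SL2i against SL, 1 of the 23 was called higher and 20 lower in clone 1, 1 and 20 in clone 2, and 3 and 20 in chr8A, with median log2 fold changes of -0.96, -0.91 and -0.73. Asns and Pycr1 thus stood on the other side of 0 from most of the list in every line. Aldh18a1 was on the same side as most of the list, at -0.96, -0.87 and -0.33 in clone 1, clone 2 and chr8A. Pck2 was so in the clones alone, at -0.33 in clone 1 and -0.26 in clone 2, with 0.51 in chr8A. Atf4 mRNA itself was lower, with -0.33 ± 0.0342, -0.36 ± 0.0339 and -0.082 ± 0.0336 in clone 1, clone 2 and chr8A. In chr8A the log2 fold change was -0.61 ± 0.117 for Ddit3, which encodes CHOP, -1.02 ± 0.0761 for Trib3, -2.93 ± 0.0592 for Ddit4, an inhibitor of mTORC1, -0.94 ± 0.0330 for Psat1, of serine synthesis, and -2.99 ± 0.141 for Stc2, a secreted glycoprotein. The list's drop stood beside lower fibroblast, neural, trophoblast and primitive endoderm marker sums in SL2i and a higher muscle and heart sum. The part of these markers in the drop was not tested.

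Between the clones and chr8A in SL, 13 of the 23 genes were called higher and 0 lower in clone 1, and 13 higher and 1 lower in clone 2, with medians of 0.14 and 0.12 beside -0.00096 and -0.00032 over all genes tested. All genes were called higher and lower in 8.83% and 7.77% of cases in clone 1 and in 14.3% and 12.6% in clone 2. The neural markers summed to 389 to 395 CPM in clone 1 and 385 to 395 CPM in clone 2 against 325 to 333 CPM in chr8A in SL, and the 5 trophoblast markers to 91.1 to 96.0 CPM in clone 1 and 92.2 to 94.9 CPM in clone 2 against 112 to 123 CPM in chr8A, with no overlap in either list. Single markers of these lists went apart in the interaction, which also takes in the SL2i libraries. Their differences within SL are not given by it. With clone 1 and clone 2 the interaction was -1.43 and -1.54 for Nes, called negative. It was called positive for Tubb3 (0.93 and 0.73) and Sox1 (1.24 and 0.75), and Pax6 was not called. Among trophoblast markers it was called positive for Krt7 (3.56 and 4.65) and Gata3 (1.13 and 1.16). Cdx2 was not called, and Tfap2c was called negative with clone 2 alone (-0.27). The part of these markers in the difference of the ATF4 list was not tested. Atf4 was higher by 0.16 ± 0.0287 and 0.19 ± 0.0284, Trib3 by 0.27 ± 0.0502 and 0.31 ± 0.0482, and Chac1, which breaks down glutathione, by 0.43 ± 0.0614 and 0.37 ± 0.0591 in clone 1 and clone 2. Asns, with 0.032 and -0.072, and Pycr1, with -0.19 and -0.23, were not called higher. Aldh18a1, with 0.18 and 0.10, was called higher in both clones, and Pck2, with 0.17 and 0.067, in clone 1 alone. The clone 2 call of Aldh18a1 and the clone 1 call of Pck2 were lost under alternatives given above. In SL2i the list split, with 2 called higher and 8 lower in clone 1 and 1 higher and 7 lower in clone 2. Of all genes tested there, 10.4% were called higher and 12.1% lower in clone 1, and 9.74% higher and 10.8% lower in clone 2. Lower in both clones were Psat1, with -0.45 ± 0.0378 in clone 1 and -0.32 ± 0.0374 in clone 2, and the mitochondrial serine enzyme Shmt2, with -0.26 ± 0.0450 and -0.31 ± 0.0449. Phgdh, the first enzyme of serine synthesis, was -0.71 ± 0.0572 and -0.62 ± 0.0562, with 56.3% of its words shared. Atf4 differed by -0.080 ± 0.0383 and -0.086 ± 0.0382 in SL2i, neither called, and Ddit3 and Trib3 were not called there either. The interaction was called negative for 10 of the 23 with clone 1 and 9 with clone 2 and positive for 1 with each, where 9.24% of all genes tested were called negative and 7.78% positive with clone 1 and 9.18% and 7.69% with clone 2. In LbNOX against vector edgeR called 0 of the 23.

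**Figure D5:**
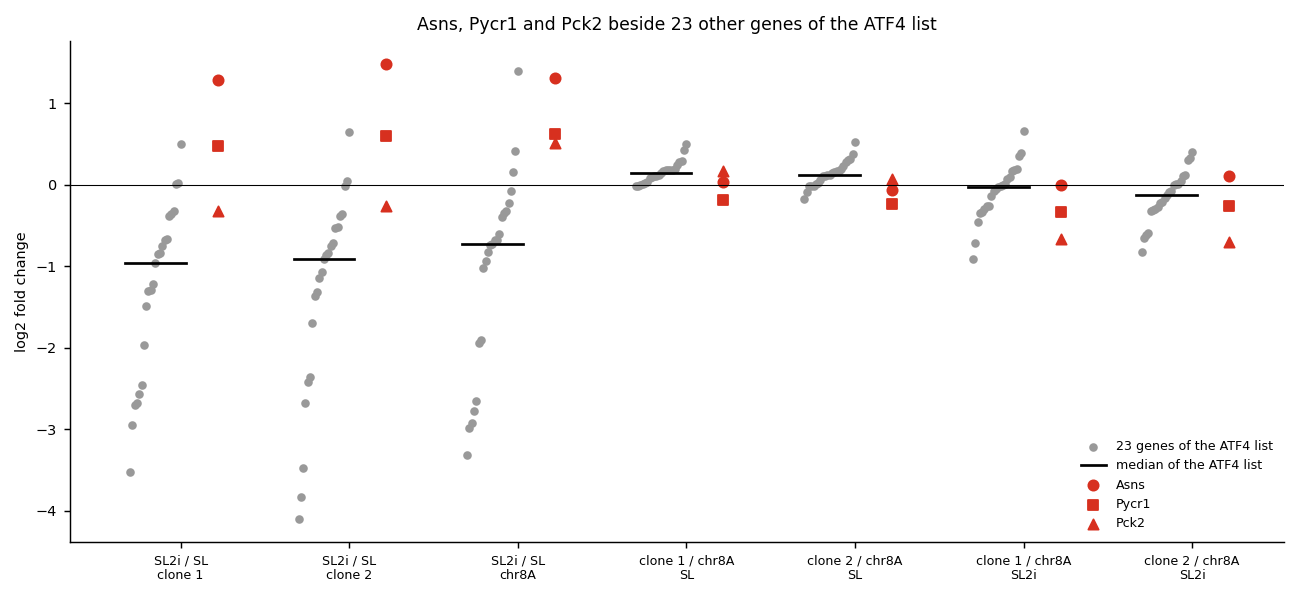
Log2 fold changes of the 23 genes of the ATF4 list (grey points, sorted within each comparison, black line at the median) and of Asns, Pycr1 and Pck2 (red symbols) in 7 comparisons, each named as numerator / denominator with the shared line or medium below. Asns and Pycr1 lie above the list's median in the 3 medium comparisons, and Pck2 lies among the lower values of the clones in SL2i.

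The genes with the most similar profile over the 6 group means were sought among 9789 genes, by the root mean square difference of centred log2 CPM. Asns was nearest to Ccdc93 (0.035), Rex2 (0.042, 94.5% of its words shared) and Gps1 (0.047, 43.2% shared). Ass1 was nearest to Prdm14 (0.080), a pluripotency regulator that was 3.70 ± 0.0929 in SL2i against SL in chr8A, Pde8a (0.094) and Ppia (0.105, 16.2% of its words shared). The Ass1 profile used reads assigned to Ass1 alone, whose split with Gm5424 differed between the media, so its nearest genes are uncertain. Aldh18a1 was nearest to Bahcc1 (0.052), Itga5 and Ppt2 (34.0% of its words shared), and Oat to Mfn1 (0.049), Mphosph6 and Lamp2. Pck2 was nearest to Prcp (0.058), Ripk3 and Miga1, and in SL2i each of these 3 was likewise called lower in clone 1 and in clone 2. Pycr1 was nearest to Osbpl1a (0.026), Prodh to Trappc10 (0.020) and Asl to Vps4a (0.014). These distances describe 6 group means of the libraries the tests used.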

How the data were processed

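Poly(A) RNA was sequenced from 21 libraries in 8 groups, with a stranded kit per the labels' protocols. The authors deposited raw counts per gene in 2 tables, made with DRAGEN 3.10, GRCm39 and featureCounts per the submitters' processing notes, and the strand setting, annotation version and handling of multiply mapped reads are not given in the sources used here. Each table was normalized and tested separately. Genes were kept by filterByExpr, normalized by TMM and tested with edgeR 4.0.16 (quasi-likelihood, robust) in R 4.3.3, with 1 fit over the 6 LbNOX and vector libraries and 1 over the other 15, and Benjamini-Hochberg adjustment over all genes of a table at 0.05. Standard errors were computed from the fold change and the F statistic. Libraries were scaled to CPM, and CPM per kb used the deposited gene lengths. The 8 genes and the pathway lists were chosen with earlier results of these data known. Named genes were the 8 genes, their nearest enzymes, carriers and regulators, up to 4 genes of each pathway list with the smallest adjusted p in a comparison, and the 3 nearest profiles (log2 of CPM + 0.5). Promoters came from RefSeq GRCm38.p6, and shared 30-base words from GENCODE vM21 transcripts. Code was tested on simulated counts. DESeq2 1.42.0, other filters, a replicate block, equal depth and leaving out each library were the alternatives. Replicate numbers were taken from the labels, and same-numbered libraries did not deviate together, so they were not treated as pairs. Some genes of the pathway lists are not reported here.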

Additional observations from a re-analysis of the deposited data

Results flagged for a closer look

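4 of the 8 genes had a difference between the SLC16A1 clones and chr8A that itself differed between SL2i and SL, by a test of that interaction on the log2 scale. With clone 1 the interaction was -0.83 for Pck2, -0.64 for Oat and -0.63 for Aldh18a1. With clone 2 it was -0.77 for Pck2, -0.54 for Oat, -0.54 for Aldh18a1 and 0.17 for Asns. Both clones share the chr8A libraries. In Pck2 the SL2i libraries were below the SL libraries in the clones and above them in chr8A. Asns also differed between the clones in SL, by -0.10 for clone 2 against clone 1. The causes were not tested.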

How the results depend on the processing

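Of 2136 values for the 8 genes under the alternatives, 2094 stayed on the same side of the threshold in the same direction, 34 lost the call, 8 gained it and 0 reversed. Of 192 counts under alternatives other than leaving out a library, 180 stayed within 1.5 times. The count for LbNOX against vector over all genes, 6, became 24 with no filter, 15 with DESeq2, 3 with the replicate block and 49 without the 2 libraries that stood apart, the last chosen after seeing the data. For clone 2 against clone 1 in SL, 756 genes became 487 with DESeq2, 1223 in a fit of only those groups and 419 at equal depth, and in SL2i 27 became 43 with DESeq2 and 11 in a fit of only those groups. At equal depth the genes called against chr8A in SL fell to 1854 in clone 1, against 2850 at full depth, and to 2900 in clone 2, against 4618. The replicate block called 2 of the 8 genes for clone 2 against clone 1 in SL in place of 1, adding Ass1 (adjusted p = 0.0479, edgeR), and changed no other call of the 8 genes. Same-numbered libraries had correlations of -0.51 to 0.39 in the LbNOX table and -0.074 to 0.11 in the other.

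Leaving out 1 library each time, the calls among the 8 genes and among all genes ranged as follows. They were 0 to 0 and 0 to 13 for LbNOX against vector, 2 to 4 and 2031 to 2910 for clone 1 in SL, 1 to 3 and 3667 to 4602 for clone 2 in SL, 4 to 5 and 2572 to 3941 for clone 1 in SL2i, and 3 to 5 and 2358 to 3625 for clone 2 in SL2i. They were 0 to 1 and 371 to 831 for clone 2 against clone 1 in SL and 0 to 0 and 16 to 40 in SL2i. For SL2i against SL they were 7 to 8 among the 8 genes in chr8A, and for the interactions 3 to 4 with clone 1 and 4 to 4 with clone 2. When one LbNOX library was dropped, 2 (replicate 1), 3 (replicate 2) or 13 (replicate 3) genes were called against vector, and 2 or 0 when vector replicate 1 or 3 was dropped. An SL2i group that lost a library kept 1, which was assumed to vary like the other groups. SL2i groups had both the lowest depth and 2 libraries in place of 3, and which of these limits smaller differences there was not tested.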

Other observations

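The genes beside each of the 8 genes on their chromosomes were examined, 5 tested genes on each side in RefSeq GRCm38.p6. In SL2i, 4 of the 10 neighbours of Oat were called lower and 0 higher in clone 1 against chr8A, and likewise in clone 2, where edgeR called 12.1% and 10.8% of all genes tested lower. They were Lhpp, a phosphatase, with log2 fold changes of -1.15 ± 0.113 in clone 1 and -1.18 ± 0.112 in clone 2, Nkx1-2, a homeobox gene, with -0.81 ± 0.225 and -1.04 ± 0.229, Chst15, a sulfotransferase, with -0.68 ± 0.253 and -0.79 ± 0.255, and Fam53b with -0.53 ± 0.0836 and -0.59 ± 0.0836. Beside Pck2, 2 of 10 were called lower in clone 1 and 3 in clone 2, among them the proteasome activator genes Psme1 (-0.45 ± 0.0648 and -0.35 ± 0.0636) and Psme2 (-0.38 ± 0.108 and -0.34 ± 0.107). Beside Aldh18a1, 0 were called higher and 2 lower in clone 1 and 1 higher and 0 lower in clone 2, and beside Pycr1 1 higher and 1 lower in clone 1 and 0 higher and 3 lower in clone 2. Beside Prodh 1 was called higher and 1 lower in each clone, and beside Asns, Ass1 and Asl 0 were called higher and 0 or 1 lower. Oat and Pck2, and the neighbours named, were singled out after these values were seen.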
